A study of Mus musculus with 8 samples.

Results

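The expression of 9 genes for lipoprotein receptors and fatty acid uptake (Lrp1, Lrp8, Vldlr, Apoe, Scarb1, Lpl, Gpihbp1, Cd36 and Fabp5) was compared between GFP-positive cells of the embryonic mouse cortex and of the lung. The genes were listed by name, and all 9 were measured among the 18193 genes of the array table. Each gene is given by the probe set (a group of short array probes) that names it alone and has the highest mean over the 8 arrays. All samples came from homozygous Tie2-GFP embryos at E13.5, whose green fluorescent protein is driven by the Tie2 (Tek) promoter, active in endothelium. There were 4 arrays of sorted cortex cells, from cortex freed of meninges and choroid plexus, and 4 arrays of sorted lung cells. Cells of all 10 to 13 embryos of a litter were pooled for each sample. The sample numbers 72, 22, 19 and 18 occur once per tissue. Tie2 is also active in some blood cells, so the GFP gate is not limited to vessel walls. Values are log2 array intensities, and differences are cortex minus lung in log2 units, so that 1 unit is a 2-fold difference.

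Vessel walls take lipids from blood by several routes. Receptors of the LDL receptor family bind and internalise lipoproteins that carry apolipoprotein E, and some of them also receive the neuronal guidance protein reelin. Along capillaries, lipoprotein lipase held by Gpihbp1 frees fatty acids from triglyceride-rich lipoproteins, and Cd36 and fatty acid-binding proteins carry these into and through the cell. The vessels of the brain are known to differ from those of heart, muscle and lung in these routes, and in adult mice Gpihbp1 is known to be missing from most brain capillaries.

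The called genes lay on both sides. The receptors Lrp8, Lrp1 and Vldlr were higher in cortex cells, by 8.35-fold, 6.54-fold and 2.26-fold. Gpihbp1 and Cd36 were lower in cortex cells, with 22.0-fold and 9.63-fold higher values in lung. Apoe, Scarb1, Lpl and Fabp5 did not pass the test. Thus 5 of 9 genes were called, where 18.1% of all genes were. The genes, and the groups further below, were chosen with earlier results of these data known. Their shares beside those of all genes therefore describe the lists and are not an independent test. A call is a limma p, adjusted by Benjamini-Hochberg over all genes, of less than 0.05. The 3 calls towards cortex stand beside 10.4% of all genes, and the 2 calls towards lung beside 7.71%. With genes dim in both tissues left out (means under 6), the calls were 6 of the 9 genes and 3361 of 12951 genes. The arrays of cortex and lung did not overlap for 6 of the 9 genes, the 5 called ones and Lpl, against 24.5% of all genes. The count of called genes was 3 when both arrays numbered 18 were left out, and it was 4 to 6 in every other alternative run.

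**Figure D1:**
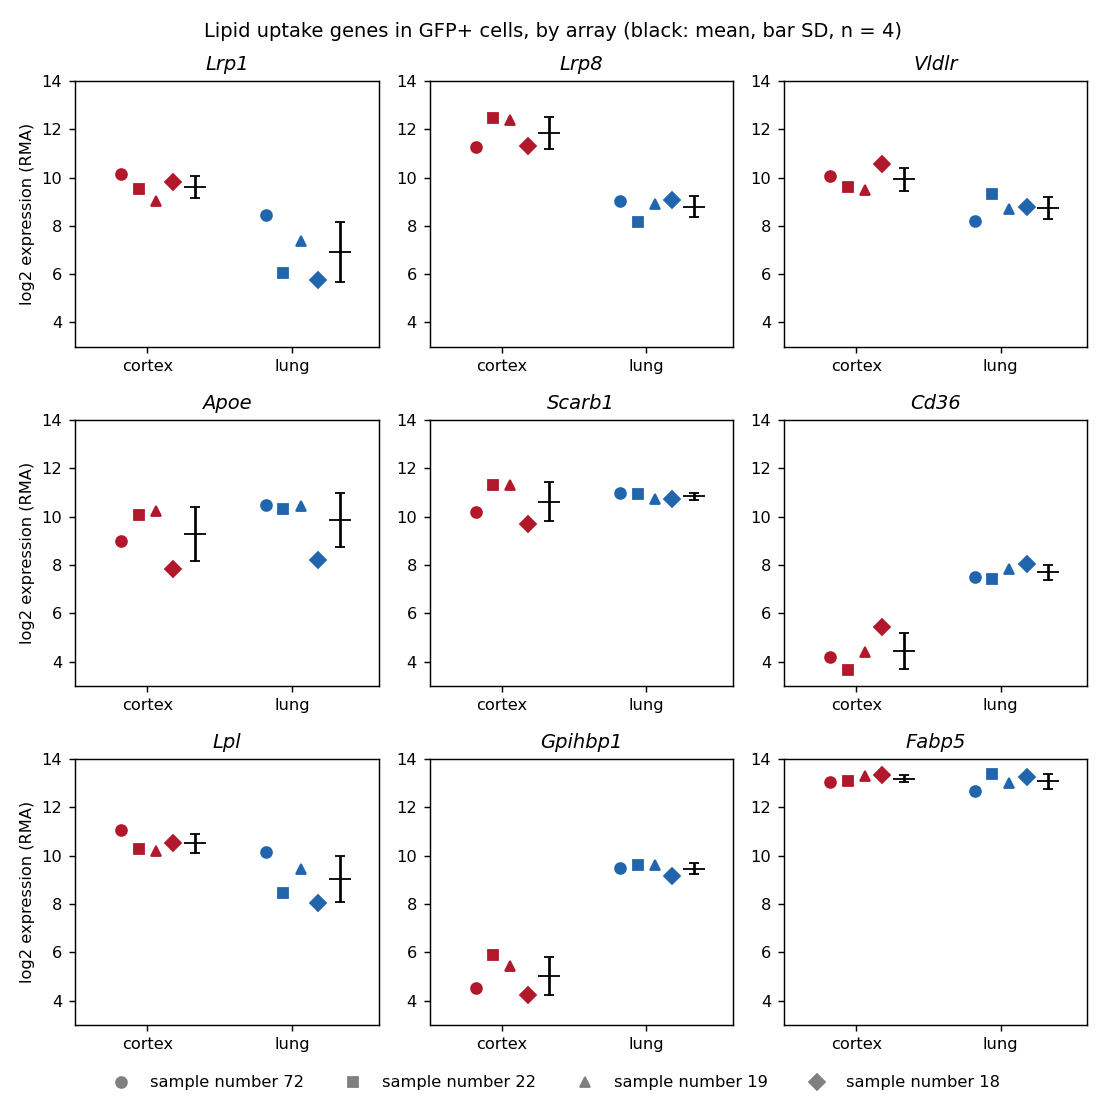
Log2 expression of the 9 genes on each array, with the 4 cortex arrays left of the 4 lung arrays and marker shapes for sample numbers. Black dashes and bars are means and SD (n = 4 each). The cortex arrays lie above all lung arrays for Lrp1, Lrp8, Vldlr and Lpl and below them for Cd36 and Gpihbp1.

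Upstream sequence is shown for the called genes that had a RefSeq promoter window, since it is the region where shared or differing elements would be looked for. Windows were available for 5 of the 9 genes (Lrp1, Lrp8, Vldlr, Apoe and Cd36), and of the called genes Gpihbp1 is named only. Each run below holds the 250 bases before the most upstream RefSeq start, 5′ to 3′ on the strand of the gene (GRCm38.p6). Capitals mark the motifs searched on both strands. These were the GC box GGGCGG, the TCF/LEF core CTTTGA, the nuclear receptor half-site AGGTCA, the forkhead core TGTTTA, the ETS core CCGGAA and the E-box CACGTG, and no marked matches overlapped. The first 3 genes were higher in cortex and the last was lower.
Lrp8, chr4:107802635-107802884, plus strand: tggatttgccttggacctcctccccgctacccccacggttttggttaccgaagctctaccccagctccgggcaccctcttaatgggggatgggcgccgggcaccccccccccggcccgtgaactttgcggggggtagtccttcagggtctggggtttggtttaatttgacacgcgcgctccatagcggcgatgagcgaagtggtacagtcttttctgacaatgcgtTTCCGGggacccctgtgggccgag
Lrp1, chr10:127621149-127621398, minus strand: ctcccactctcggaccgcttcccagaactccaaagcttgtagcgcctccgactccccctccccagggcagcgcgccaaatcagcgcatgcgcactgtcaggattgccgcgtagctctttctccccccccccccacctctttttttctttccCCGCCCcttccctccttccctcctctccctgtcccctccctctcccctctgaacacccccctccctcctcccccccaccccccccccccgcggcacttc
Vldlr, chr19:27216234-27216483, plus strand: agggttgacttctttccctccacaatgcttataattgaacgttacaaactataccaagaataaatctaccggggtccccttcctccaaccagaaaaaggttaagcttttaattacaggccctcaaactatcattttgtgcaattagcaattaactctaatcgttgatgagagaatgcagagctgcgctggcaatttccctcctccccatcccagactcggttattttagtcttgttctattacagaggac
Cd36, chr5:17835897-17836146, minus strand: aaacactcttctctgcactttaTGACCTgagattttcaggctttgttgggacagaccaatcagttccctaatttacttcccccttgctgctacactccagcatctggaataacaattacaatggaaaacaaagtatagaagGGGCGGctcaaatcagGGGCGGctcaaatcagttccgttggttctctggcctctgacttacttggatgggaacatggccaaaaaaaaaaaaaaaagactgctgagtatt

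The Lrp8 window held 1 ETS core, on the reverse strand, and the Lrp1 window 1 GC box, also on the reverse strand. The Vldlr window held 0 matches to any of the 6 motifs. The Cd36 window held 2 GC boxes within a repeated stretch and 1 nuclear receptor half-site on the reverse strand. Among all 32851 windows of the same length, 32.7% held a GC box, 14% a nuclear receptor half-site, 13.8% a TCF/LEF core, 12% a forkhead core, 12% an ETS core and 6.02% an E-box. No motif was therefore common to the 3 windows shown of genes higher in cortex. Lrp8 had 3 RefSeq windows and Vldlr 2, of which only the most upstream is shown. G and C made up 67.2% of the Lrp1 window, 62.4% of the Lrp8 window, 41.6% of the Vldlr window and 43.2% of the Cd36 window.

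Lrp8, also known as apolipoprotein E receptor 2, binds reelin as well as lipoproteins. It lay at 11.28, 12.48, 12.40 and 11.29 on cortex arrays 72, 22, 19 and 18, against 9.04, 8.17, 8.93 and 9.07 on the lung arrays of the same numbers. The lowest cortex array was more than 2 log2 units above the highest lung array. The mean was 11.86 ± 0.67 in cortex and 8.80 ± 0.43 in lung (SD, n = 4 each), a difference of 3.06 ± 0.35 (SE; limma adjusted p = 0.000466). A further probe set of Lrp8 gave 4.02 (adjusted p = 0.000308 over all probe sets), and the third, which was dim in lung (6.41 ± 0.16), gave 1.21 (adjusted p = 0.0752). Lrp8 kept its call in all 19 alternatives, with differences of 2.64 to 4.30.

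Lrp1 is a large endocytic receptor that clears apolipoprotein E remnants and many other ligands. Its values were 10.13, 9.52, 9.02 and 9.80 on cortex arrays 72, 22, 19 and 18, and 8.47, 6.04, 7.36 and 5.77 on the lung arrays in that order. The lung arrays spread over nearly 3 log2 units, with numbers 22 and 18 lowest, and the cortex arrays over about 1. Cortex averaged 9.62 ± 0.47 and lung 6.91 ± 1.25, a difference of 2.71 ± 0.57 (limma adjusted p = 0.0118). The second probe set of Lrp1 did not follow in size. It gave 8.17 ± 0.56 in cortex and 7.22 ± 0.98 in lung, a difference of 0.95 (adjusted p = 0.264 over probe sets), and its lung values reached 8.55. The mean of both probe sets still passed at 1.83. Without both arrays numbered 22 the difference was 2.45 (limma adjusted p = 0.0694), and without both numbered 18 it was 2.27 (adjusted p = 0.0622).

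Vldlr, the VLDL receptor, shares reelin with Lrp8 as a ligand. It stood at 10.08, 9.62, 9.49 and 10.55 on cortex arrays 72, 22, 19 and 18, and at 8.22, 9.33, 8.70 and 8.78 on the lung arrays in that order. The groups came within 0.2 log2 units of each other, between cortex 19 and lung 22. The difference was 1.18 ± 0.30 (limma adjusted p = 0.0268), from 9.93 ± 0.48 in cortex and 8.76 ± 0.46 in lung. All 6 probe sets of Vldlr were higher in cortex, by 1.18 to 1.92, and 5 of them passed over all probe sets. The tightest had 7.61 ± 0.19 in cortex and 5.74 ± 0.12 in lung (limma adjusted p = 9.42e-05). The probe set used has a suffix for probes that can bind other transcripts too. Leaving out cortex 72, cortex 18, lung 72, lung 19 or lung 18 each ended its call (0.97 to 1.18, limma adjusted p from 0.0547 to 0.073).

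**Figure D2:**
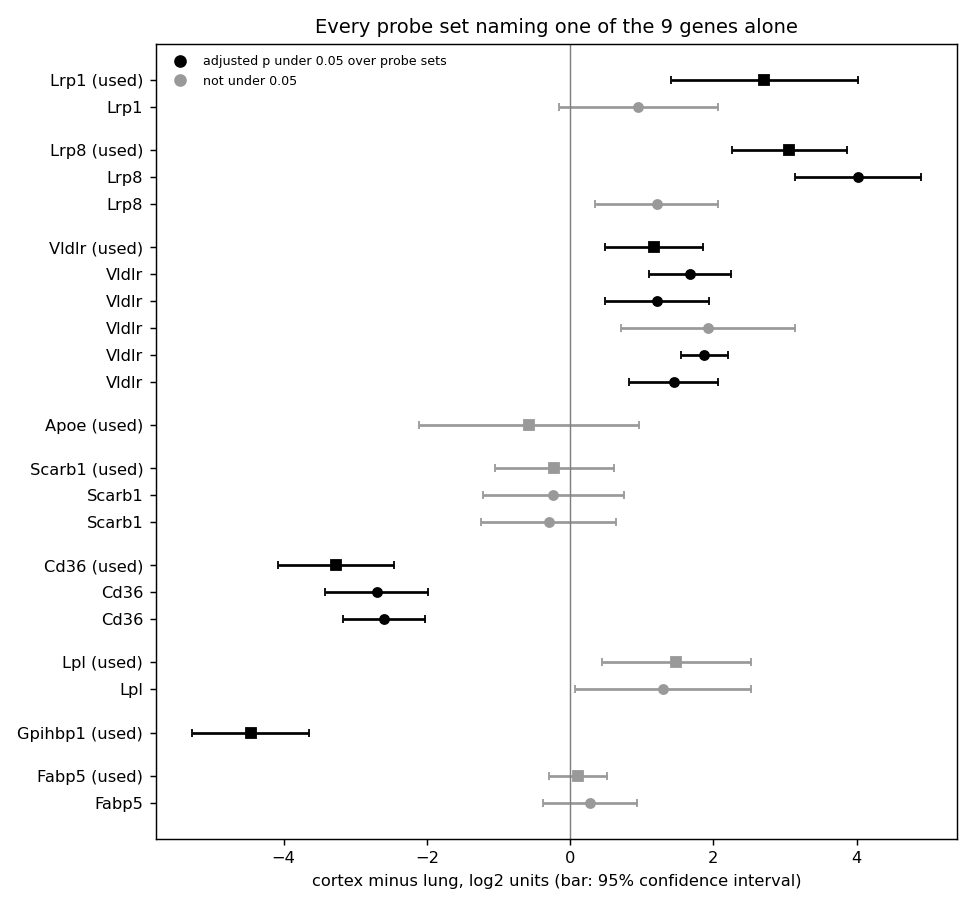
Differences between cortex and lung in log2 units for all 23 probe sets of the 9 genes, with 95% confidence intervals, squares for the probe set used and black for those under an adjusted p of 0.05 over 45037 probe sets. The probe sets of each gene share their sign. Of the 23, 12 are called, 8 higher and 4 lower in cortex, beside 5475 of all 45037 probe sets. Vldlr has 5 of the 12 called probe sets and Cd36 has 3, and probe sets of the same gene are repeated measures of it.

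Apoe, the apolipoprotein that these receptors bind, varied more between arrays of a tissue than between tissues. Cortex arrays 72, 22, 19 and 18 had 8.97, 10.09, 10.25 and 7.84, and the lung arrays in the same order had 10.47, 10.32, 10.44 and 8.20. Number 18 was the lowest in both tissues, and the groups overlapped. The difference was -0.57, with a 95% confidence interval of -2.09 to 0.95 (limma adjusted p = 0.589), whose lower end is a 4.26-fold higher level in lung. The mean of 15 markers of microglia and macrophages, cells known for high Apoe, was 8.57, 8.26, 8.87 and 5.96 on the cortex arrays and 6.55, 5.78, 6.12 and 5.48 on the lung arrays, with 5 of the 15 called higher in cortex (10.4% of all genes). It too was lowest for number 18 in both tissues. So was the mean of pan-endothelial markers (9.31 in cortex and 11.22 in lung). The means for pericytes and smooth muscle (6.66 and 6.67) and for lung epithelium (6.89 and 7.16) were also lowest there. On cortex arrays 72, 22, 19 and 18 the pan-endothelial mean was 9.80, 11.14, 11.26 and 9.31, the same order as Apoe. The part of any of these cell types in the Apoe values was not tested.

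Scarb1 encodes SR-BI, the receptor through which cells exchange cholesterol with HDL. It lay at 10.20, 11.32, 11.30 and 9.69 on cortex arrays 72, 22, 19 and 18, against 10.99, 10.95, 10.72 and 10.73 on lung arrays. The lung arrays lay within the range of the cortex arrays, which spread over more than 1.5 log2 units. The difference was -0.22, with a confidence interval of -1.04 to 0.61 (limma adjusted p = 0.706), and its 3 probe sets ran from -0.30 to -0.22. Without cortex 18 the sign turned, at 0.093. The probe set used and another of the 3 have the suffix for probes that can bind other transcripts too.

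The pair that acts on triglyceride-rich lipoproteins at the capillary wall had differences of opposite sign, of which that of Lpl did not pass. Gpihbp1 is the anchored protein of capillary endothelial cells that carries lipoprotein lipase to the lumen. It had 4.52, 5.89, 5.42 and 4.21 on cortex arrays 72, 22, 19 and 18, and 9.49, 9.63, 9.60 and 9.16 on lung arrays. Every lung array was more than 3 log2 units above every cortex array. The mean was 5.01 ± 0.78 in cortex and 9.47 ± 0.22 in lung, a difference of -4.46 ± 0.35 (limma adjusted p = 6.4e-05). The lower quartile of all probe sets lay between 4.87 and 5.16 on the 8 arrays, so the cortex mean was near the dim end, where the processing compresses differences. The gene had 1 probe set, and its call held in all 19 alternatives (-4.75 to -3.23).

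Lpl, the lipase itself, is made mainly by parenchymal cells rather than endothelium. Its values were 11.08, 10.26, 10.19 and 10.54 on cortex arrays 72, 22, 19 and 18, and 10.17, 8.44, 9.47 and 8.06 on lung arrays. The lowest cortex array was only just above the highest lung array. Cortex averaged 10.52 ± 0.40 and lung 9.03 ± 0.96, a difference of 1.48 ± 0.45 that missed the threshold (limma adjusted p = 0.0532). It passed in 7 of 19 alternatives, among them leaving out lung 72 (1.86, adjusted p = 0.0119) and leaving out dim genes (adjusted p = 0.0384). The second probe set gave 1.30 (adjusted p = 0.168 over probe sets).

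Cd36, a scavenger receptor that speeds the uptake of long-chain fatty acids, had 4.20, 3.66, 4.40 and 5.44 on cortex arrays 72, 22, 19 and 18. On the lung arrays it had 7.49, 7.41, 7.84 and 8.04. The cortex values lay near or below the lower quartile of the arrays, with number 18 highest. The difference was -3.27 ± 0.35 (limma adjusted p = 0.000354), from 4.43 ± 0.75 in cortex and 7.69 ± 0.30 in lung. All 3 probe sets were called, at -3.27, -2.70 and -2.60. Cd36 is also abundant in platelets. The mean of 9 megakaryocyte and platelet markers ranged from 5.70 to 7.22 in cortex and from 6.08 to 6.74 in lung, with 1 marker called in each direction (10.4% of all genes higher and 7.71% lower in cortex).

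Fabp5, a fatty acid-binding protein of the cytosol found in endothelium and many other cells, was high and even. It lay at 13.07, 13.09, 13.29 and 13.35 on cortex arrays and at 12.69, 13.38, 13.02 and 13.25 on lung arrays, in the order 72, 22, 19 and 18. The groups overlapped, and the difference was 0.12 with a confidence interval of -0.29 to 0.52 (limma adjusted p = 0.683). A difference above 1.43-fold towards cortex, or above 1.22-fold towards lung, lay outside that interval. The second probe set gave 0.28, and the sign turned without lung 72, at -0.016.

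Markers of several cell types differed in level between the sorted cells of cortex and lung. Of 26 pan-endothelial markers, 7 were called lower in cortex (7.71% of all genes) and 25 had a lower mean there (10648 of all 18193 genes). Their mean was 9.80, 11.14, 11.26 and 9.31 on cortex arrays 72, 22, 19 and 18, and 11.68, 11.71, 11.83 and 11.22 on lung arrays, so that cortex 72 and 18 stood lowest. All 19 measured markers of neurons and neural progenitors were called higher in cortex (10.4% of all genes), with array means of 10.72 to 11.30 in cortex and 5.94 to 6.15 in lung. All 12 fibroblast markers had lower means in cortex, 9 of them called (7.71% of all genes), with array means of 5.58 to 6.19 in cortex and 6.89 to 9.26 in lung. Of 6 measured markers of choroid plexus, 2 were called higher in cortex (10.4% of all genes) and 0 lower. Their array means were 6.12 to 7.62 in cortex, highest on 72 and 19 (7.62 and 7.60), and 5.17 to 5.61 in lung. In bulk RNA, fewer cells of a type and less RNA per cell cannot be told apart. The description label of 4 samples, numbers 19 and 18, names the other tissue. Their neural marker values lay with the tissue of the title, which was used.

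The genes differed in how they lay beside these markers. On cortex arrays Lrp8, Scarb1, Apoe and Gpihbp1 were highest on numbers 22 and 19, the arrays with the higher endothelial means. Lrp1, Vldlr and Lpl were highest on cortex 72 and 18, the arrays with the higher neural means of 11.28 and 11.30, against 10.97 and 10.72 for 22 and 19. In lung, Lrp1 and Lpl ran in the order 72, 19, 22, 18, and the fibroblast mean had the same order (9.26, 8.63, 7.97 and 6.89). So did the lung means of the markers of pericytes and smooth muscle (8.07, 7.54, 7.28 and 6.67), lung epithelium (8.52, 7.74, 7.51 and 7.16) and microglia and macrophages. These are orders over 4 arrays, and the part of any of these cell types in the differences was not tested.

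**Figure D3:**
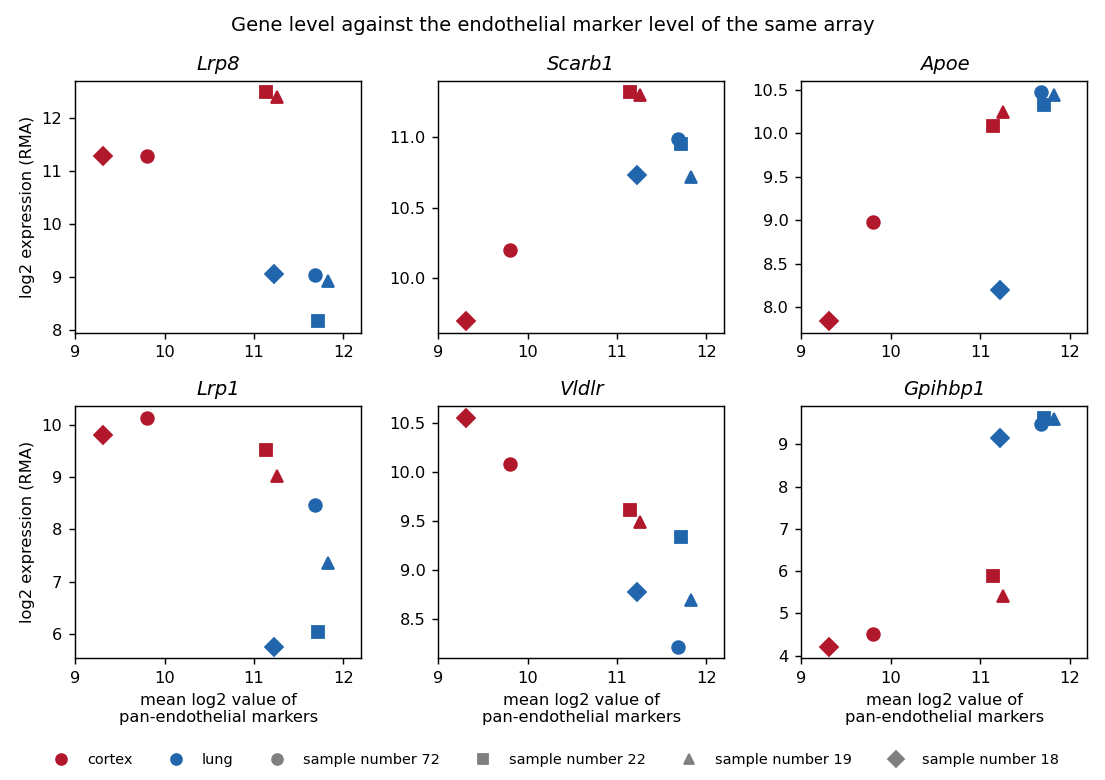
Log2 expression of 6 genes on each array (vertical axis, scaled per gene) against the mean log2 value of 26 pan-endothelial markers on the same array (horizontal axis), with cortex in red and lung in blue. Cortex 72 and 18 lie at 9.80 and 9.31 on the horizontal axis, where Lrp8, Scarb1, Apoe and Gpihbp1 are lower and Lrp1 and Vldlr higher than on cortex 22 and 19.

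When each array was shifted to the same pan-endothelial mean, the median of all genes moved to 1.15 towards cortex and 97.3% of all genes then called were higher in cortex, since the shift adds the same amount to the difference of every gene. Lrp8 then stood at 4.30, Lrp1 at 3.94, Lpl at 2.72 and Vldlr at 2.41, all called and all above that median. Gpihbp1 stayed lower in cortex at -3.23 and Cd36 at -2.03, both called. Apoe turned to 0.66 and Scarb1 to 1.01, both uncalled and below the median of all genes, and Fabp5 stood at 1.35.

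**Figure D4:**
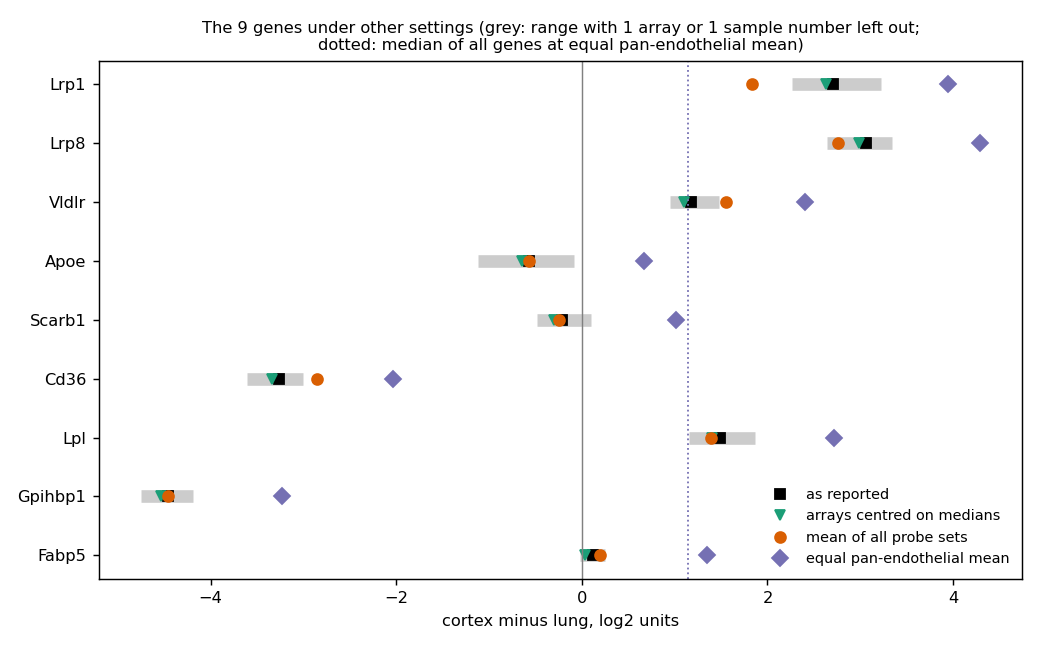
Cortex minus lung in log2 units for the 9 genes as reported and under 3 other settings, with a grey bar for the range when 1 array or 1 sample number is left out. Gpihbp1 and Cd36 stay below 0 and Lrp1, Lrp8, Vldlr and Lpl above 0 in all of them, while Apoe and Scarb1 cross 0 at equal pan-endothelial mean. The grey bars of Scarb1 (up to 0.093) and Fabp5 (down to -0.016) cross 0 as well.

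Other genes of the LDL receptor family and their partners were called at 5 of 16 measured (31.3%, against 18.1% of all genes), 3 higher and 2 lower in cortex (10.4% and 7.71% of all genes), with a median difference of -0.036 beside -0.087 over all genes. With dim genes left out, 6 of 14 were called, against 3361 of 12951 genes. Dab1, the adaptor that docks to the tails of Lrp8 and Vldlr when reelin binds, was 22.4-fold higher in cortex. It had 10.97, 10.60, 10.31 and 11.16 on cortex arrays 72, 22, 19 and 18 and 5.28, 7.33, 5.50 and 6.99 on lung arrays (limma adjusted p = 0.000314). The sorting receptor Sorl1 was higher by 2.56 (9.51 ± 0.56 in cortex, 6.95 ± 0.28 in lung) and the agrin receptor Lrp4 by 1.56 (11.02 ± 0.06 and 9.46 ± 0.62). Reelin itself, Reln, named after its values were seen, did not pass (limma adjusted p = 0.0609), with 11.27 ± 0.54 in cortex and 8.98 ± 1.62 in lung. Dab1 and Sorl1, like Lrp1, lay highest on cortex 72 and 18, as did Abcg4, Lipg and Acsl6 of the groups below.

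The 2 lower genes of that group were Mylip and Lrp5. Mylip, the ubiquitin ligase that marks Vldlr and Lrp8 for degradation, differed by -1.61 (limma adjusted p = 0.0151), from 6.46 ± 0.67 in cortex and 8.07 ± 0.47 in lung. The Wnt co-receptor Lrp5 differed by -1.14 (adjusted p = 0.018), and without cortex 72 its call ended at -1.09 (adjusted p = 0.0546). At equal pan-endothelial mean neither was called, at -0.38 and 0.091, and all 7 genes then called in the group were higher in cortex, as were 97.3% of all genes called under that scaling.

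The group of apolipoproteins and lipid efflux, which also held scavenger receptors such as Stab2 and Msr1, had 26 genes. Of these, 5 were called (19.2%, near the 18.1% of all genes), 2 higher and 3 lower in cortex, with a median of -0.19. With dim genes left out, 6 of 17 were called, against 3361 of 12951 genes. Apod, a lipocalin that carries small lipids, had 11.47, 13.06, 12.81 and 11.13 on cortex arrays 72, 22, 19 and 18. On lung arrays it had 5.91, 5.70, 5.31 and 7.05. The difference was 6.12 ± 0.52 (limma adjusted p = 9.25e-05), and the 2 highest cortex arrays were 22 and 19, as for Lrp8. With the mean of all probe sets of a gene the difference of Apod was 3.79. The sterol exporter Abcg4 was higher by 1.37, at 7.43 ± 0.45 in cortex and 6.07 ± 0.07 in lung, and by 0.57 with the mean of its probe sets.

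Stab2, a scavenger receptor of sinusoidal endothelium, differed by -2.23, at 6.72 ± 0.44 against 8.96 ± 0.36 in lung (limma adjusted p = 0.000519). Lcat, which esterifies cholesterol on HDL, differed by -0.91 (adjusted p = 0.0226), and its call ended without lung 19 or lung 18, at -0.88 and -0.83. Msr1, the macrophage scavenger receptor, differed by -0.61 (adjusted p = 0.0412), and its call held without lung 72 (-0.73) but ended without any 1 of the other 7 arrays, at -0.67 to -0.52, and with the mean of its probe sets, at -0.31. The group split into 2 higher and 5 lower with arrays centred on their medians, and all 7 genes called at equal pan-endothelial mean were higher in cortex, beside 97.3% of all genes called there.

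Of 19 lipases and lipase regulators, 4 were called (21.1%, also near 18.1%), 1 higher and 3 lower in cortex, with a median of -0.27. With dim genes left out, 4 of 16 were called, against 3361 of 12951 genes. Lipg, endothelial lipase, was higher by 2.41, at 9.33, 8.74, 7.57 and 8.95 on cortex arrays 72, 22, 19 and 18 and 5.94, 6.61, 5.35 and 7.07 on lung arrays (limma adjusted p = 0.00756). Its lowest values in both tissues were on number 19. With the mean of its probe sets the difference was 1.75. Without both arrays numbered 72 it was 2.08 and not called (limma adjusted p = 0.059). The proprotein convertases Pcsk5 and Pcsk6, a family that cleaves and inactivates such lipases, were lower in cortex, with differences of -2.95 and -0.93. The limma adjusted p of Pcsk5 was 0.000231, with 8.04 ± 0.44 in cortex and 10.98 ± 0.49 in lung. The monoacylglycerol lipase Mgll was lower too, by a difference of -2.38, at 7.75 ± 0.71 in cortex and 10.14 ± 0.38 in lung, or -1.44 with the mean of its probe sets. At equal pan-endothelial mean the split was 3 higher and 1 lower, beside 97.3% higher among all genes called there, with Pcsk5 still called and Mgll not (-1.15).

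Fatty acid uptake, binding and activation, a group that also held transcription factors such as Meox2 and Tcf15, had the most calls of the 4 groups. These were 13 of 30 genes (43.3%, against 18.1% of all genes), 8 higher and 5 lower in cortex, with a median of -0.040. With dim genes left out, 14 of 26 were called, against 3361 of 12951 genes. Fabp7, the fatty acid-binding protein of radial glia, was higher by 7.23 and the lysophospholipid transporter Mfsd2a by 5.64. Fabp7 is also among the markers of neurons and neural progenitors used above. Mfsd2a had 12.09, 12.97, 12.65 and 11.53 on cortex arrays 72, 22, 19 and 18, against 7.34, 6.34, 6.67 and 6.33 on lung arrays. Acsl6, an acyl-CoA synthetase of brain, was higher by 3.53, with 8.91 ± 0.42 in cortex and 5.38 ± 0.41 in lung (limma, adjusted p = 5.12e-05). The other genes called higher, given to complete the count, were Cpt1c (2.13), Slc27a1 (1.57), Fabp3 (1.28), Dbi (0.79) and Scarb2 (0.64).

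Fabp4, the fatty acid-binding protein of adipocytes and of capillary endothelium, was lower in cortex, with a difference of -4.93. It had 5.04, 5.04, 4.86 and 4.75 on cortex arrays 72, 22, 19 and 18, against 10.67, 10.38, 10.34 and 8.003 on lung arrays (limma adjusted p = 0.000353). Lung 18 stood more than 2 log2 units below the other lung arrays and still well above all cortex arrays. With the mean of all probe sets of a gene the difference of Fabp4 was -2.86. Meox2 and Tcf15, transcription factors that together are known to drive fatty acid uptake genes in mouse heart endothelium, were lower, with differences of -4.79 and -2.57. Meox2 lay at 4.46 ± 0.62 in cortex and 9.25 ± 0.52 in lung, and Tcf15 at 7.17 ± 0.21 and 9.74 ± 0.42 (adjusted p = 4.62e-05 and 0.000105). The cortex mean of Meox2 was below the lower quartile of every array, so its difference is not exact. The remaining genes called lower were Acsl5 (-1.49) and Pparg (-1.04). At equal pan-endothelial mean the split was 12 higher and 2 lower, beside 97.3% higher among all genes called there, with Fabp4 (-3.69) and Meox2 (-3.55) still called and Tcf15 at -1.34 (adjusted p = 0.0718).

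**Figure D5:**
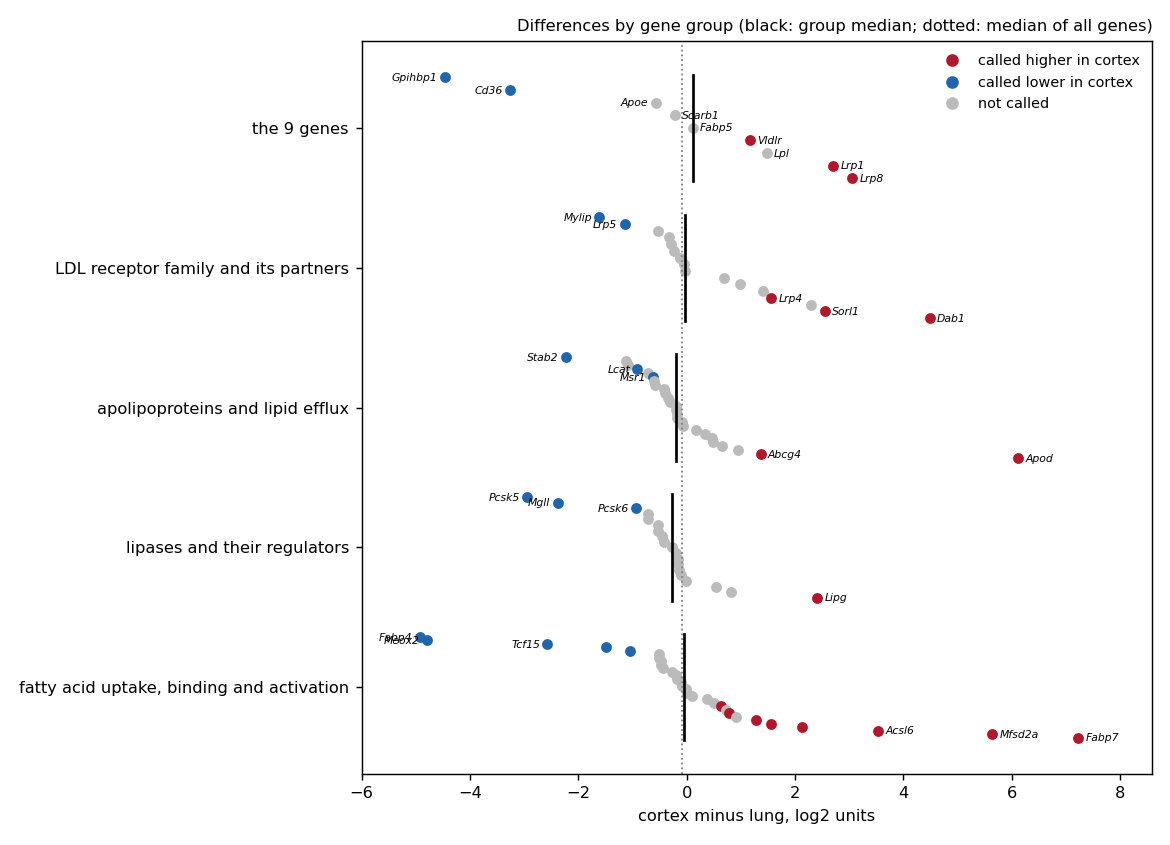
Cortex minus lung in log2 units for the 9 genes and 4 further groups, 1 point per gene, with black lines for group medians and a dotted line for the median of all genes (-0.087). Called genes (red higher, blue lower in cortex) lie on both sides in every group, from Fabp4 at -4.93 to Fabp7 at 7.23.

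The genes most like each called gene were taken as those with the smallest root mean square difference between centred log2 profiles over the 8 arrays, among 18192 others. For Lrp8 the nearest was Apcdd1, an inhibitor and target of Wnt signalling, at 0.0969 log2 units. Its means were 12.77 ± 0.60 in cortex and 9.76 ± 0.44 in lung. Next came the peptidoglycan recognition protein Pglyrp1 at 0.357. For Lrp1 the nearest were Dixdc1 (0.204) and Rwdd3 (0.239), and for Vldlr Amn1 (0.183) and the synaptic scaffold gene Dlg4 (0.224). For Cd36 they were Samd5 (0.308) and the coactivator gene Ppargc1b (0.339), and for Gpihbp1 the aryl hydrocarbon receptor gene Ahr (0.282) and Synpo (0.341). Any gene with a like difference between the tissues is near by this measure.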

How the data were processed

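RNA of GFP-positive cells (15 to 30 ng) was, per the labels' protocols, linearly amplified, labelled with biotin and read on Affymetrix Mouse Genome arrays. The authors deposited log2 values per probe set, made with RMA (background correction, quantile normalization, probe summary) and the affy package, per the submitters' processing notes, with versions not given in the sources used here. RMA compresses differences at the dim end and expresses each gene relative to the array as a whole. Medians of the arrays were 6.59 to 6.72. Precision is limited by having 4 arrays a tissue. All 8 columns were used.

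Tests left out 64 control probe sets. Of 45037 others, 34945 named 1 gene, 932 several and 9160 none in the platform annotation used here, with 0 symbols changed through RefSeq gene numbers. The probe set with the highest mean represented each gene. The test of cortex against lung was limma 3.58.1, run in R 4.3.3 (lmFit, eBayes, tissue as factor, two-sided, Benjamini-Hochberg over all 18193 genes or all probe sets), with no filter on dim genes, and the fit was tested on simulated data. All 9 genes have a tissue mean of at least 6. Alternatives were the sample number as a block, median centring, equal pan-endothelial means, a dim filter at 6, the mean of a gene's probe sets, array weights, a robust intensity trend, and leaving out arrays.

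The named genes are the 9 listed, up to 3 called genes in each direction per group with the largest differences, and the 2 nearest profiles per called gene. Further genes are marked where given. The genes and groups were chosen with earlier results of these data known. Some further genes of these groups are not reported here, and each count is over the genes measured. The labels do not say whether equal sample numbers share a litter.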

Additional observations from a re-analysis of the deposited data

Results flagged for a closer look

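Of 58 sets of 4 arrays tested (29 named genes in 2 tissues), 4 held an array far from the other 3, where chance alone flags about 1 in 20. Apoe was 8.20 on lung 18, against 10.32 to 10.47 on the other lung arrays. Fabp4 was 8.003 on the same array, against 10.34 to 10.67 on the other lung arrays. Lrp8 was 8.17 on lung 22, with the other lung arrays at 8.93 to 9.07. Lcat was 6.04 on cortex 18, with the other cortex arrays at 6.83 to 6.92. Without lung 18 the difference of Apoe between cortex and lung was -1.12 (limma adjusted p = 0.231) and that of Fabp4 was -5.54. Without cortex 18 the difference of Apoe was -0.087 (limma adjusted p = 0.939), against -0.57 with all arrays.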

How the results depend on the processing

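Lrp8, Cd36 and Gpihbp1 kept direction and call in all 19 alternatives, Lrp1 in 17 and Vldlr in 10. Without 1 array or 1 sample number the called counts were 3 to 5 for the 9 genes, 3 to 6 for LDL receptor family genes, 3 to 6 for lipid efflux, 2 to 6 for lipases, 11 to 14 for fatty acid genes and 2074 to 3081 for all genes, where fewer arrays were fitted. Lipid efflux had 3 calls with the sample number as a block, where Lcat (limma adjusted p = 0.0623) and Msr1 (0.0828) missed the threshold, and 8 with array weights, and the cause was not tested. At equal pan-endothelial mean all genes had 5079 calls (4943 higher and 136 lower in cortex, against 1888 and 1403 as reported), and Apoe (0.66), Scarb1 (1.01), Lrp5 (0.091), Lcat (0.32), Msr1 (0.62) and Pcsk6 (0.30) changed sign, by the shift of the median gene to 1.15. Scarb1 also turned without cortex 18 (0.093) and without both arrays numbered 18 (0.054), in a range of -0.49 to 0.093 with arrays left out, and Fabp5 without lung 72 (-0.016), in a range of -0.016 to 0.25. Same-numbered arrays had correlations of their deviations from the tissue means of 0.33 (number 72), -0.16 (22), 0.0089 (19) and 0.31 (18), and 4 of 8 arrays correlated best with their own number. With the block the 9 genes kept 5 calls, the LDL receptor group had 6, lipases 4, fatty acid genes 13 and all genes 3143. Vldlr then missed the threshold (limma adjusted p = 0.0558) and Lpl passed it (0.0339). No detection calls were used, so the dim cortex values of Cd36, Gpihbp1, Fabp4 and Meox2 limit how exactly those differences are known.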
